A study of Mus musculus with 18 samples.

Results

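At P90, 90 days after birth, the vestibular organ of mice lacking Igf1 differed from that of wild-type mice in 57 autosomal genes. Of these, 46 were higher in the null organ, led by genes of activated macrophages, inflammation and mucosal epithelium, and 11 were lower, led by genes of B cells. The comparison set 3 Igf1 -/- arrays against 3 Igf1 +/+ arrays of the same age, 6 of the 18 arrays of the study. The other 12 arrays held both genotypes at E18.5 and P15, with 3 arrays in each group. Its members were all genes on autosomes, 19106 of the 19938 genes with a named probe set, and sex-linked genes were left out because the arrays of the 2 genotypes differed in sex-linked RNA. Each gene was taken by its chromosome, whatever its own level or difference.

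All mice, null and wild type, came from a hybrid of Mf1 and 129/sv. They were perfused with 4% paraformaldehyde before the inner ear was taken out, and total RNA was hybridised to Mouse Gene 1.1 ST arrays, which read each gene with many short probes. The labels describe each array as a biological replicate, and they leave unstated whether an array held 1 animal or a pool. The p-values therefore rest on the spread between arrays, whether these held single animals or pools. That spread was pooled within the groups of all 3 ages, with 12 residual degrees of freedom, and is not that of the P90 arrays alone. The standard errors can therefore be too small for genes whose P90 arrays varied more than those of the other ages. For genes whose P90 arrays varied less they can be too large. A fit of the P90 arrays alone, with 4 residual degrees of freedom, found 5 autosomal genes to differ. The labels name neither the targeted allele nor the deleted exons. One label field of the 3 wild-type arrays calls them Igf1 -/-, while their titles, sources and genotype entries say Igf1 +/+, and the titles were followed.

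The vestibular organ senses gravity and head rotation. Its hair cells, carried by supporting cells, sit under otoconia and acellular membranes, and dark cells and fibrocytes keep the fluids around them. IGF-1, a growth factor released by cells, acts through the receptor Igf1r, and in mice and humans its loss causes hearing impairment. Resident macrophages live in the adult inner ear, and the surrounding temporal bone holds marrow, where B cells, red cells and granulocytes form, and the middle ear, which is lined by mucosal epithelium.

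Values are in log units of a base that is not stated. With base e, which the range of the values makes the likely one, a difference of 1 unit is 2.72-fold, and with base 2 it is 2-fold. The deposited medians of the P90 arrays ran from 4.70 to 4.80 in the null arrays and from 4.42 to 4.82 in the wild-type arrays, so the arrays were quantile normalised before they were compared. Xist, the RNA that coats the inactive X chromosome of female cells, stood at 7.91, 7.43 and 7.42 in null arrays 1, 2 and 3, against 3.33, 2.87 and 1.86 in the wild-type arrays. The mean of 3 Y-linked genes was 2, 5.44 and 5.49 in the null arrays and 6.12, 6.12 and 6.32 in the wild-type arrays. Null arrays 2 and 3 thus carried both signals, and null array 1 had Xist with a low Y-linked mean. Whether the mixed signal came from pooled animals was not tested. Female RNA was present in every null array and low in every wild-type array. With 6 arrays this split cannot be told apart from genotype. Wild-type array 3 stood apart from the other wild-type arrays. On the first principal component of the P90 arrays, which held 41.2% of the variance, the null arrays scored 25.9, 14.8 and -0.5, wild-type arrays 1 and 2 scored -19.2 and -29.7, and wild-type array 3 scored 8.7, between the null arrays. Among genes of the labelled tissue, Nox3 encodes an oxidase subunit needed to form otoconia. Its level was 6.56, 7.12 and 6.49 in the null arrays and 5.98, 5.93 and 6.38 in wild type. Nox3 was the highest of the genes listed for otoconia and acellular membranes. The mean level of that list was 4.45 in the null arrays and 4.02 in wild type, and Oc90, the main protein of otoconia, had means of 3.83 and 3.72. Cerebellar RNA was present in both genotypes, with Cbln3, a cerebellin of granule cells, at 7.77, 7.80 and 8.20 in the null arrays and 7.83, 8.21 and 8.33 in wild type. The brain and cerebellum list had mean levels of 5.69, 5.74 and 6.01 in the null arrays and 5.68, 5.98 and 5.98 in wild type, and a median difference of -0.04.

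Igf1 itself was not called. Its level was 5.43, 5.51 and 5.31 in the null arrays and 5.63, 5.39 and 5.55 in the wild-type arrays, ranges that overlapped. The difference was -0.11 ± 0.12 (SE; limma adjusted p = 0.761), and it turned to 0.06 without normalisation between arrays. Since neither the probe positions nor the deleted exons are known here, the Igf1 level checks no genotype label. By age, the difference was -0.43 at E18.5, -0.41 at P15 and -0.11 at P90. Of the 25 measured autosomal genes of the IGF system, 17 were higher and 8 lower at P90 and 0 passed the test (6 had an unadjusted p under 0.05), with a median difference of 0.04 (0.00 to 0.10 without each P90 array) against 0.01 over all autosomal genes. Pappa2, a protease that frees IGF from its binding proteins, had 4.95, 4.29 and 4.20 in the null arrays against 3.63, 3.47 and 3.96 in wild type. Its arrays did not overlap, and its difference was 0.79 ± 0.16 (adjusted p = 0.0513). The receptor gene Igf1r differed by 0.33 ± 0.08 (adjusted p = 0.088), the insulin receptor gene Insr by 0.25 ± 0.08 (adjusted p = 0.277) and the ligand gene Igf2 by 0.17 ± 0.10 (adjusted p = 0.555). The adaptor genes Irs1 and Irs2, which pass the receptor's signal on, differed by 0.14 ± 0.09 (adjusted p = 0.549) and 0.15 ± 0.10 (adjusted p = 0.601), and Igfbp3, which encodes a carrier of IGF in blood, by 0.35 ± 0.11 (adjusted p = 0.245). Socs2, a growth hormone target that restrains that hormone's signal, had a difference of 0.41 ± 0.08 (adjusted p = 0.0516). It was the nearest to the threshold of the 20 growth hormone and FoxO genes, of which 0 were called and 5 had an unadjusted p under 0.05. Over all autosomal genes, 2117 of 19106 had an unadjusted p under 0.05.

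A gene was called where the adjusted p of the limma fit over all genes was under 0.05. Of 19106 autosomal genes, 57 were called (0.298%), 46 as higher (0.241%) and 11 as lower (0.0576%). An unadjusted p under 0.05 was found for 2117 of the 19106, and a difference above 0 for 53.4%. The differences of the higher genes ran from 0.44 to 2.70 with a median of 1.03, and those of the lower genes from -0.94 to -0.46 with a median of -0.88. In all 57, the 3 null arrays lay on one side of the 3 wild-type arrays. Over all autosomal genes the null arrays lay above wild type in 1228 (6.43%) and below in 776 (4.06%). In 21 of the 46 higher genes the P90 null arrays also lay above all other 15 arrays of the study. In 2 of the 11 lower genes, Efna4 and Cenpn, they lay below all of them. These genes were chosen by their P90 values, which favours such a position. The share of all autosomal genes that did so was not counted.

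**Figure D1:**
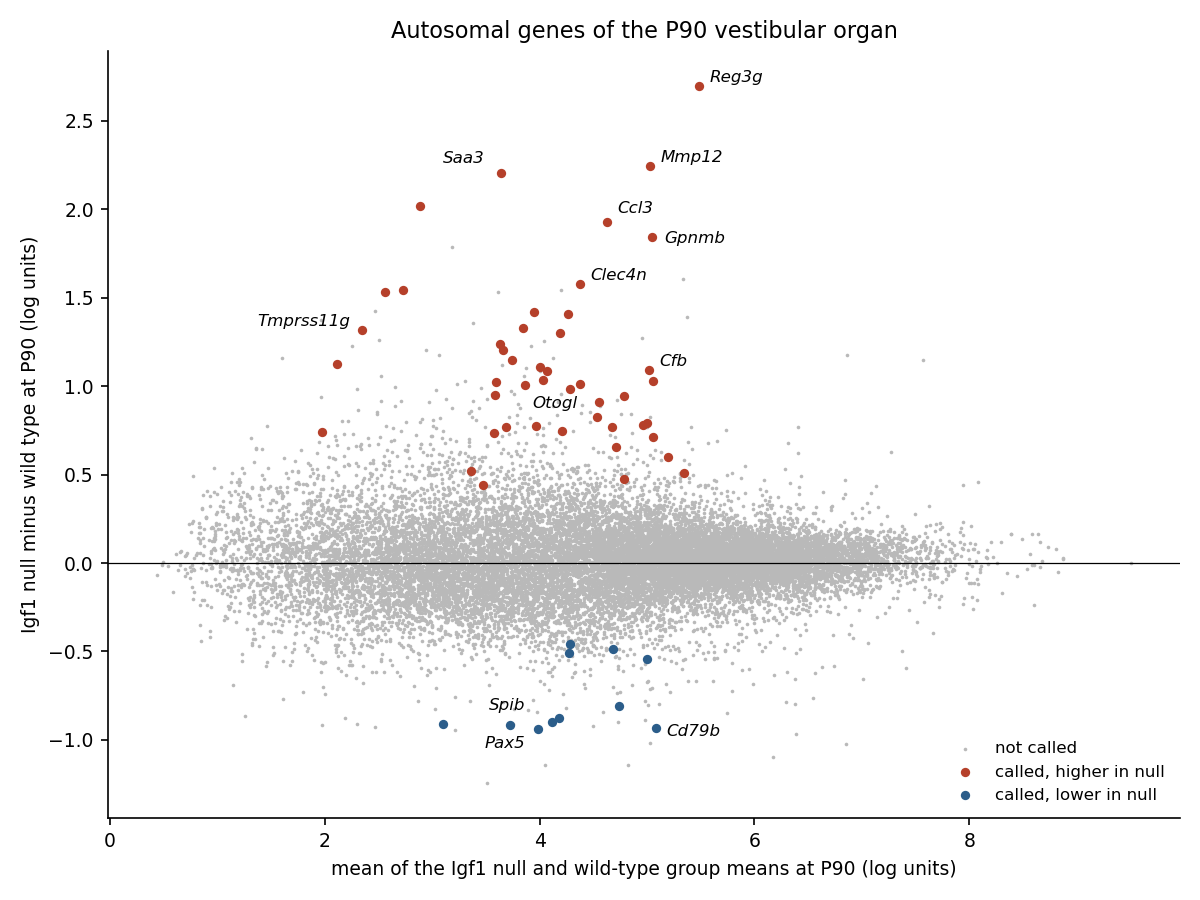
Each point is 1 autosomal gene at P90. The horizontal axis gives the mean of the 2 group means and the vertical axis the difference, Igf1 null minus wild type, both in log units. Called genes are coloured and 12 of them named; the rises reach 2.70 (Reg3g), and the lowest called difference is -0.94 (Pax5).

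How many genes passed depended on single arrays. Leaving out null array 1 gave 16 calls, null array 2 31, null array 3 192, wild-type array 1 29, wild-type array 2 15 and wild-type array 3 635. All 57 genes were still called without wild-type array 3 and 54 without null array 3, but 12 without null array 1 and 13 without wild-type array 2. In all 6 of these fits 9 genes were called, namely Mmp12, Clec4n, Tmprss11g, Gpnmb, Saa3, Ccl3 and Kcnj15 as higher and Spib and Cd79b as lower. With the mean of the Y-linked genes of each array as a covariate 7 autosomal genes were called, and 6 of them were among the 57, namely Mmp12, Clec4n, Tmprss11g, Gpnmb, Saa3 and Ccl3.

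**Figure D2:**
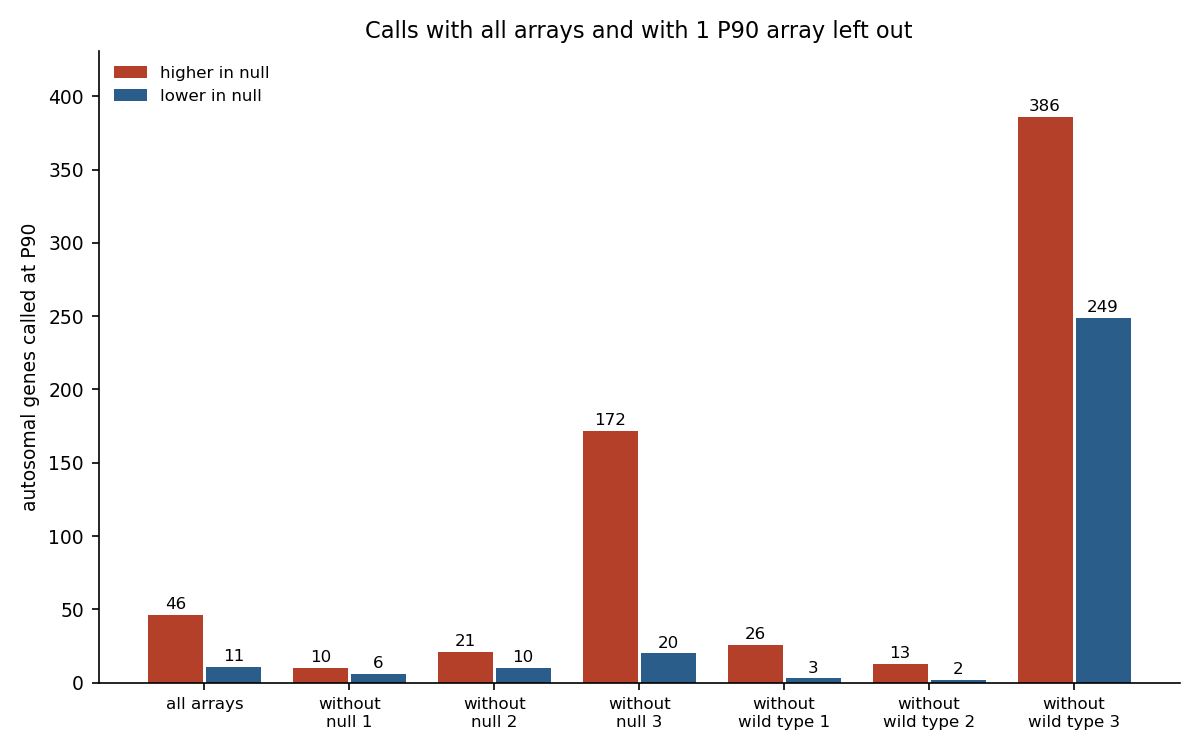
Autosomal genes called at P90 with all arrays and with 1 P90 array left out, as bars from 0, for genes higher and lower in Igf1 null. The counts run from 10 higher and 6 lower without null array 1 to 386 higher and 249 lower without wild-type array 3.

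Genes of phagocytes, the cells that engulf debris, were among the rises with the smallest p-values. Mmp12, the elastase secreted by macrophages, had 6.28, 6.10 and 6.08 in the null arrays against 3.86, 3.80 and 4.05 in wild type. Gpnmb, a glycoprotein of lipid-laden macrophages and of melanocytes, had 5.75, 5.92 and 6.24 in the null arrays against 3.96, 4.03 and 4.38 in wild type. The lowest null array exceeded the highest wild-type array by a wide margin in both genes. Mmp12 rose by 2.25 ± 0.19 (SE; limma adjusted p = 9.04e-05) and Gpnmb by 1.84 ± 0.20 (adjusted p = 0.000516). Msr1, a scavenger receptor that takes up modified lipoproteins, had 4.62, 4.72 and 4.29 in the null arrays and 3.85, 3.08 and 3.60 in wild type, a rise of 1.03 ± 0.16 (adjusted p = 0.0141). In bulk tissue, more cells of a type and more RNA per cell cannot be told apart. Of the 28 measured genes for the phagocyte lysosome and lipid handling, 23 were higher and 5 lower. Mmp12, Gpnmb and Msr1 were called (10.7%, against 0.298% of all autosomal genes). The list's median difference was 0.33 against 0.01 over all autosomal genes, and in 14 of the 28 (50%, against 6.43% of all autosomal genes) the null arrays lay above wild type without overlap. Ctsl, a lysosomal protease, had a difference of 0.43 ± 0.09 and did not pass (adjusted p = 0.0516). The mean level of the list was 6.09, 6.18 and 5.99 in the null arrays and 5.81, 5.60 and 5.72 in wild type, again without overlap.

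Receptors by which myeloid cells sense microbes and damage included 4 further rises. Clec4n, the C-type lectin Dectin-2, had 5.41, 5.01 and 5.08 in the null arrays against 3.88, 3.27 and 3.61 in wild type, a rise of 1.58 ± 0.15 (adjusted p = 0.000178). Clec4d, a related lectin, had 5.53, 5.14 and 5.11 in the null arrays against 4.51, 4.17 and 4.26 in wild type and rose by 0.94 ± 0.16 (adjusted p = 0.0207). Cd14, a co-receptor for bacterial lipopolysaccharide, had 5.21, 4.68 and 4.42 in the null arrays against 3.81, 3.62 and 3.94 in wild type, a rise of 0.98 ± 0.19 (adjusted p = 0.0366). Null array 1 was the highest of the 6 arrays for all 3 genes. Of the 23 measured genes of this list, 17 were higher and 6 lower, and 3 were called (13%, against 0.298% of all autosomal genes). The list's median was 0.26, and it was 0.07 without wild-type array 2, 0.11 without null array 1 and 0.42 without null array 3. Tlr2, a receptor for bacterial lipoproteins, differed by 0.38 ± 0.11 without passing (adjusted p = 0.193). C3ar1, the receptor for the complement fragment C3a, had 5.34, 5.59 and 5.25 in the null arrays against 4.60, 4.43 and 4.79 in wild type and rose by 0.79 ± 0.12 (adjusted p = 0.011). The calls of Clec4d, Cd14, Msr1 and C3ar1 were lost when single arrays were left out, with Clec4d and Msr1 called in 4 of 6 such fits, C3ar1 in 5 and Cd14 in 2.

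Markers of macrophages that reside in tissue showed no called rise. Of 22 measured genes 11 were higher and 11 lower, with a median of -0.02 (-0.13 without null array 2 and 0.12 without null array 3), and the mean level was 4.77, 4.94 and 4.52 in the null arrays and 4.95, 4.67 and 4.79 in wild type, so the genotypes overlapped. The only called member, Fcna, a ficolin made by macrophages, was lower. Its level was 3.34, 4.05 and 3.61 in the null arrays against 4.79, 4.49 and 4.42 in wild type, and it fell by 0.90 (SE 0.15; adjusted p = 0.0207), with the call kept in 3 of the 6 fits that left out an array. Timd4, a receptor for dying cells on resident macrophages, had a difference of -0.50 ± 0.10 (adjusted p = 0.0516), and Cd163, a haemoglobin scavenger receptor, -0.38 ± 0.13 (adjusted p = 0.314). Spic, a transcription factor of the macrophages that recycle iron from red cells, had 2.67, 2.93 and 2.26 in the null arrays against 3.66, 3.15 and 3.51 in wild type and a difference of -0.82 ± 0.17 (adjusted p = 0.0516). The 2 genotypes did not overlap for Timd4, Cd163 and Spic.

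**Figure D3:**
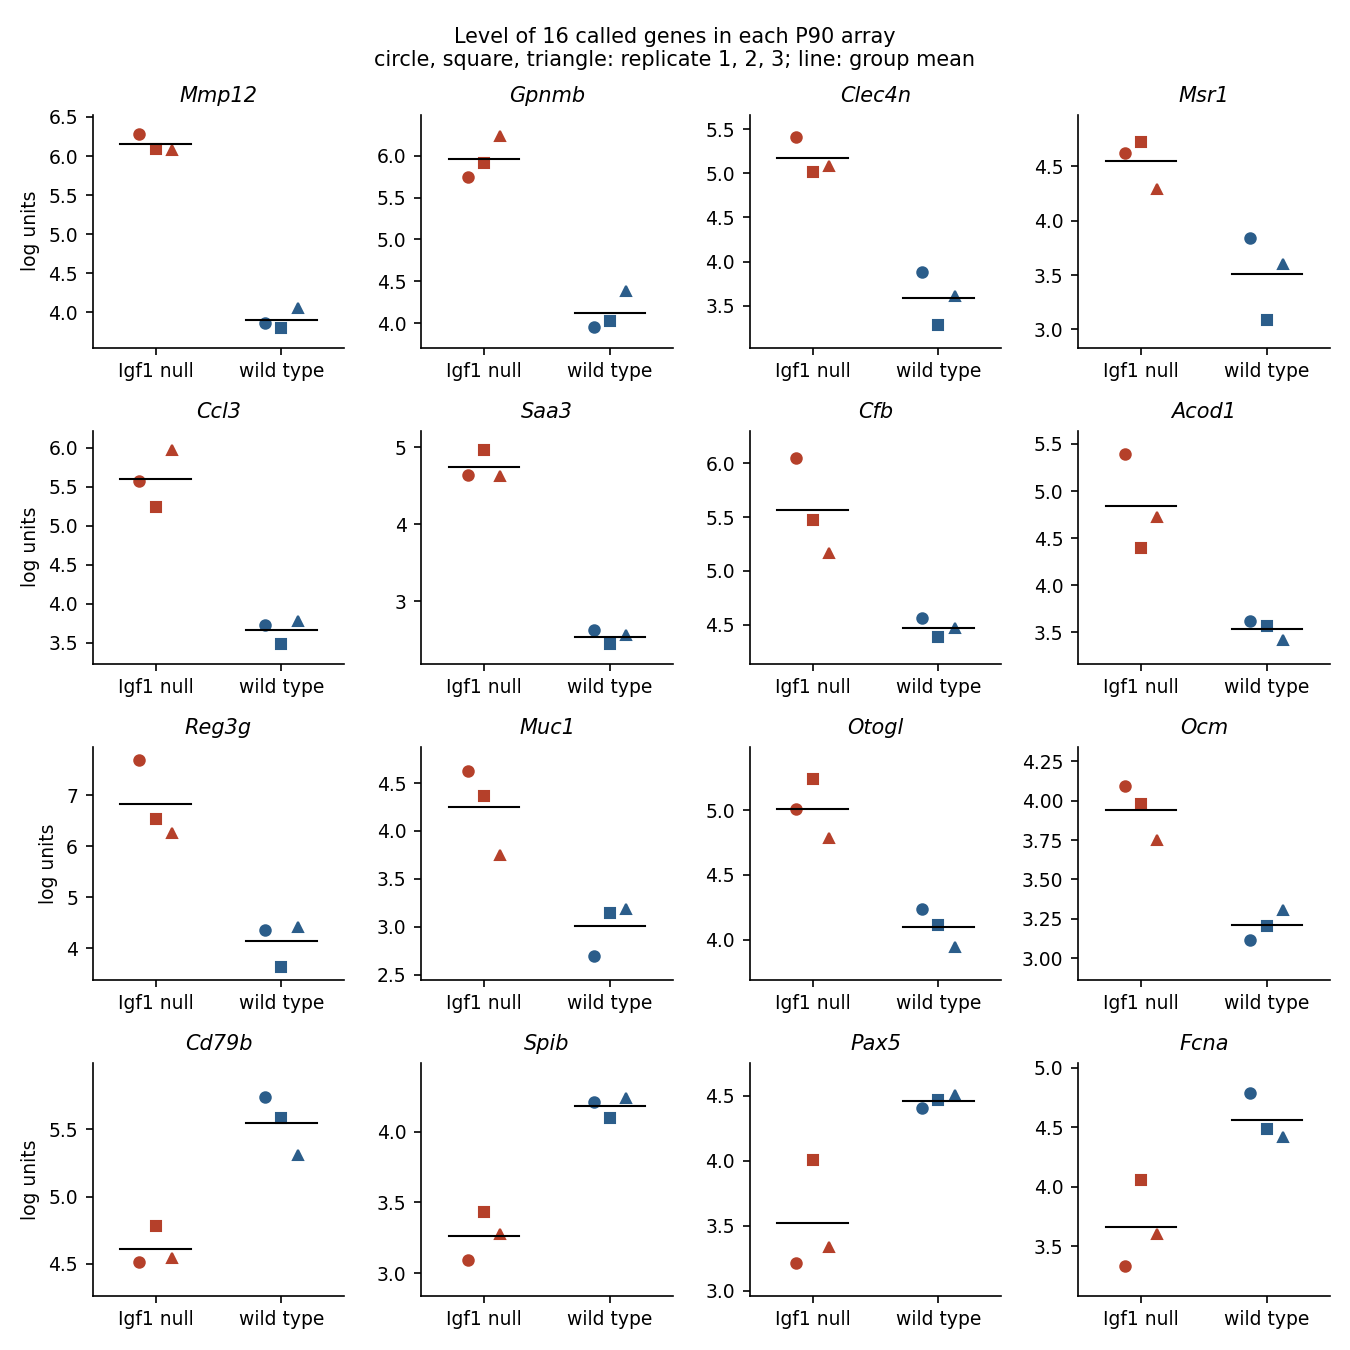
Level of 16 called genes in each P90 array, in log units, with Igf1 null on the left and wild type on the right of each panel. Symbols give the replicate number and lines the mean of 3 arrays; each vertical axis has its own range and does not start at 0. The null arrays lie wholly above wild type in the first 12 genes and wholly below in Cd79b, Spib, Pax5 and Fcna.

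Several secreted signals and acute phase proteins were also called. Ccl3, a chemokine that draws monocytes, had 5.58, 5.24 and 5.96 in the null arrays against 3.73, 3.48 and 3.78 in wild type and rose by 1.93 ± 0.24 (adjusted p = 0.0022). Saa3, a serum amyloid A made locally in inflamed tissue, had 4.64, 4.96 and 4.63 in the null arrays against 2.62, 2.44 and 2.56 in wild type and rose by 2.20 ± 0.27 (adjusted p = 0.0022). The wild-type level of Saa3 lay below 3.4, the level under which the highest group mean of 20% of genes fell, where background weighs more on the size of a difference. Cfb, the protease of the alternative complement pathway, had 6.05, 5.47 and 5.17 in the null arrays against 4.56, 4.39 and 4.47 in wild type, a rise of 1.09 ± 0.18 (adjusted p = 0.0207). Acod1, the enzyme that makes itaconate in activated macrophages, had 5.39, 4.40 and 4.72 in the null arrays against 3.62, 3.56 and 3.42 in wild type, a rise of 1.30 ± 0.24 (adjusted p = 0.0365). Ccl3 and Saa3 kept their calls in all 6 fits without an array, whereas Cfb was called in 2 of them and Acod1 in 3. The acute phase and antibacterial list went both ways, with 20 genes higher and 14 lower of 34. Of these, Saa3 and Reg3g, an antibacterial lectin, were called (5.88%, against 0.298% of all autosomal genes). The list's median of 0.12 turned to -0.04 without null array 1 and to -0.05 with the Y-linked covariate, and was 0.00 without wild-type array 2.

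The remaining members of the chemokine and cytokine list leaned the same way but did not pass. Of 43 measured genes, 33 were higher and 10 lower, Ccl3 alone was called, and the median was 0.12. The median was 0.09 without null array 1 or wild-type array 3, and 0.11 with the Y-linked covariate. Without null array 3 it was 0.30, and 0.18 without null array 2, wild-type array 1 or wild-type array 2. The null arrays lay above wild type in 12 of the 43 (27.9%, against 6.43% of all genes) and below in 0. Cxcl16, a scavenger receptor and chemokine of phagocytes, had 4.90, 4.72 and 4.41 in the null arrays against 3.88, 3.18 and 4.11 in wild type and a difference of 0.95 ± 0.20 (adjusted p = 0.0595). Il1rn, the natural antagonist of interleukin 1, differed by 0.80 ± 0.17 (adjusted p = 0.0615). Cxcl2, which draws neutrophils, differed by 1.18 ± 0.28 (adjusted p = 0.0979), and the interferon-induced Cxcl10 by 1.12 ± 0.27 (adjusted p = 0.103). Cxcl13, which draws B cells, had 5.74, 4.30 and 3.98 in the null arrays against 3.28, 3.32 and 3.65 in wild type, with null array 1 far above the rest, and a difference of 1.26 ± 0.33 (adjusted p = 0.14). Il1b, Tnf and Ccl4 had overlapping genotypes, with differences of 0.07 ± 0.20, 0.30 ± 0.19 and 0.11 ± 0.10.

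Genes that answer or restrain inflammatory signals included several further rises. Osmr, the receptor for oncostatin M, had 5.73, 5.48 and 5.02 in the null arrays against 4.75, 4.49 and 4.85 in wild type and rose by 0.71 ± 0.14 (adjusted p = 0.0398). Tnip3, which restrains NF-kappa B signalling, rose by 1.53 ± 0.27 (adjusted p = 0.0222) with 4.21, 3.03 and 2.72 in the null arrays against 1.57, 1.70 and 2.10 in wild type and means below 3.4 in both genotypes. Its relative Tnip2 had a difference of 0.52 ± 0.10 (adjusted p = 0.051). Of the 20 measured genes of NF-kappa B feedback, 17 were higher and 3 lower, with a median of 0.14 (0.08 without null array 1). Tnip3 alone was called (5%, against 0.298% of all autosomal genes). Arg1, an arginase of alternatively activated macrophages, rose by 0.77 ± 0.14 (adjusted p = 0.033), with 4.09, 4.30 and 3.82 in the null arrays against 3.29, 3.16 and 3.46 in wild type. Mmp3, the matrix protease stromelysin 1, had 5.21, 4.45 and 4.31 in the null arrays against 2.86, 3.42 and 3.43 in wild type and rose by 1.42 ± 0.26 (adjusted p = 0.029). Tnip3 was called in 4 of the 6 fits without an array, and Osmr, Arg1 and Mmp3 in 2 each. The complement list was balanced, with 9 genes higher and 9 lower of 18. Its 2 called members were Cfb and C3ar1 (11.1%, against 0.298% of all autosomal genes). The list's median was 0.01, and ran from -0.07 without null array 2 to 0.18 without null array 3.

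Promoters of Mmp12, Mmp3, Gpnmb and C3ar1, all called as higher, are shown where they hold a site for AP-1. AP-1 is the transcription factor of Jun and Fos proteins, and its site is written TGANTCA, which is its own reverse complement. These 4 genes were picked after their values and matches were seen. The sequences, from 250 bases before to 50 bases after an annotated start, come from RefSeq for GRCm38.p6, each written 5′ to 3′ on the strand of its gene with the AP-1 match in capitals. They lie at chr9:7347124-7347423 (plus strand), chr9:7445572-7445871 (plus strand), chr6:49036268-49036567 (plus strand) and chr6:122856108-122856407 (minus strand).
Mmp12: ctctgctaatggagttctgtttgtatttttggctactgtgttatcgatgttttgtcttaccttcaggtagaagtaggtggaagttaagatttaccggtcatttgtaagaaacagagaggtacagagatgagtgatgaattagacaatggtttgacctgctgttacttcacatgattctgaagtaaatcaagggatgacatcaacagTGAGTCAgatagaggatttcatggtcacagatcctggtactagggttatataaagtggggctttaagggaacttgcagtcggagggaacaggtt
Mmp3: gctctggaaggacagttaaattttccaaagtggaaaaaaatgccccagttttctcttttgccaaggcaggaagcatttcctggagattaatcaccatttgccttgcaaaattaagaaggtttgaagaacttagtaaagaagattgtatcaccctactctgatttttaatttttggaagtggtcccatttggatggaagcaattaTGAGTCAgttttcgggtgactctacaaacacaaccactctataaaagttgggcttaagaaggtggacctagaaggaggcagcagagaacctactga
Gpnmb: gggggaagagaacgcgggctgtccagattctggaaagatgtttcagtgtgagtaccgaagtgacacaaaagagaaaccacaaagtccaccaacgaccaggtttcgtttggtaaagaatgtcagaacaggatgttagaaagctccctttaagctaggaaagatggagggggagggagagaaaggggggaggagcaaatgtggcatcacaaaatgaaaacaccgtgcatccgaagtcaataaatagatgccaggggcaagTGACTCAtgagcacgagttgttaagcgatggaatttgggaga
C3ar1: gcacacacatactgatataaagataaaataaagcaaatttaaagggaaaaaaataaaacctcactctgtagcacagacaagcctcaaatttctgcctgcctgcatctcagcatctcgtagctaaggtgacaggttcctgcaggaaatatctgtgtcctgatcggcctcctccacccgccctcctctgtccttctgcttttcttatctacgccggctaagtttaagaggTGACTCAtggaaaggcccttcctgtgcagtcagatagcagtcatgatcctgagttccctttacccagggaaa
The match began 44 bases before the start in Mmp12, 46 in Mmp3 and 22 in C3ar1, and 8 bases after it in Gpnmb. Mmp12 and Mmp3, neighbours on chromosome 9, share the letters TGAGTCA, and Gpnmb and C3ar1 share TGACTCA. Mmp12 has another annotated start, at chr9:7344147-7344446, whose window held a PU.1 box (GAGGAAGT) and a C/EBP match (TTNNGCAA) instead, and the array does not tell the starts apart. Among called genes with a promoter in the table, 7 of 33 higher ones held an AP-1 match, adding Slco1a5, Hal and Osmr, and 0 of 9 lower ones did, where 8.97% of all 27025 genes held it. The C/EBP letters were found in 9 of 33 higher and 2 of 9 lower genes against 12.2% of all genes, and the PU.1 box in 4 of 33 and 0 of 9 against 3.69%. The NF-kappa B letters GGANTTTCC were found in 1 higher gene, Acod1, against 1.45% of all genes, and the octamer ATGCAAAT in 0 of either against 1.97%. The EBF1 core CCCNNGGGA was found in 2 higher genes and 1 lower gene, against 7.48% of all genes. Such matches describe the letters of these windows and no binding was measured. Of 27 measured immediate early genes, a list that holds Fos and Jun genes, 17 were higher, 10 lower and 0 called. The list's median was 0.16 (0.08 to 0.22 without each P90 array). Fos differed by -0.04 ± 0.21, Jun by 0.01 ± 0.10 and Fosl2 by 0.53 ± 0.20 (limma adjusted p = 0.963, 0.99 and 0.353). Whether AP-1 activity differed was not tested.

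Genes of mucosal and other barrier epithelia made up the second group of rises. Reg3g, an antibacterial lectin, showed the widest difference of any called gene, with 7.71, 6.54 and 6.27 in the null arrays against 4.36, 3.63 and 4.42 in wild type, and rose by 2.70 ± 0.45 (adjusted p = 0.0207). Muc1, a membrane mucin, had 4.63, 4.37 and 3.75 in the null arrays against 2.70, 3.15 and 3.18 in wild type and rose by 1.24 ± 0.19 (adjusted p = 0.014). Pigr, the receptor that carries IgA and IgM across epithelia, had 5.06, 4.37 and 4.24 in the null arrays against 3.40, 3.69 and 3.25 in wild type and rose by 1.11 ± 0.19 (adjusted p = 0.0222). Null array 1 was the highest in each of these 3 genes. Of the 38 measured genes of mucosal secretory and ciliated epithelium, 30 were higher and 8 lower. Reg3g, Muc1 and Pigr were called (7.89%, against 0.298% of all autosomal genes). The null arrays lay above wild type in 8 of the 38 (21.1%, against 6.43% of all autosomal genes) and below in 0. The list's median was 0.28, against 0.01 over all autosomal genes. The mean level of the list was 4.71, 4.23 and 4.29 in the null arrays and 4.14, 3.97 and 3.95 in wild type. Muc4, another membrane mucin, had a difference of 0.82 ± 0.19 (adjusted p = 0.0845). Without null array 1 the list's median was 0.11, and 0.14 with the Y-linked covariate.

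Called genes outside the lists included others known from epithelia. Tmprss11g, a membrane serine protease, rose by 1.32 ± 0.13 (adjusted p = 0.000411) with dim levels of 2.96, 3.34 and 2.71 in the null arrays against 1.70, 1.58 and 1.77 in wild type. Kcnj15, an inward rectifier potassium channel, had 4.52, 4.43 and 4.01 in the null arrays against 3.07, 3.30 and 3.14 in wild type and rose by 1.15 ± 0.14 (adjusted p = 0.00271). Both kept their calls in all 6 fits without an array. Slc34a2, a phosphate transporter, rose by 0.95 ± 0.14 (adjusted p = 0.00929), and Gabrp, a GABA receptor subunit found in epithelia, by 1.33 ± 0.20 (adjusted p = 0.0109). Sftpd, the collectin surfactant protein D, rose by 1.21 ± 0.24 (adjusted p = 0.0453), the tetraspanin Tspan1 by 1.41 ± 0.27 (adjusted p = 0.0366) and the uroplakin Upk1b by 1.03 ± 0.17 (adjusted p = 0.0207). Junction genes were among them, namely Cldn8, a claudin of tight junctions, with 0.78 ± 0.14 (adjusted p = 0.029), and Dsc2, a desmosomal cadherin, with 0.44 ± 0.08 (adjusted p = 0.0366). These 7 genes were called in 1 to 4 of the 6 fits without an array.

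Among the genes of otoconia and acellular membranes, 1 was called. Otogl, an otogelin-like protein of the membranes that overlie hair cells, had 5.0, 5.24 and 4.79 in the null arrays against 4.24, 4.11 and 3.94 in wild type and rose by 0.91 ± 0.15 (adjusted p = 0.0177). It has 2 probe sets, with differences of 0.91 and 1.01. All 10 genes measured for otoconia and the acellular membranes had differences above 0, Otogl alone was called, and in 6 of the 10 (60%, against 6.43% of all genes) the null arrays lay above wild type without overlap. The median was 0.47, the highest of the 41 lists, against 0.01 over all autosomal genes, and it stayed between 0.38 and 0.53 when any 1 of the P90 arrays was left out. Otol1, otolin of the otoconial matrix, differed by 0.66 ± 0.15 (adjusted p = 0.0903), Nox3 by 0.62 ± 0.16 (adjusted p = 0.147) and otogelin, Otog, by 0.55 ± 0.17 (adjusted p = 0.226). The tectorin genes Tecta and Tectb differed by 0.48 ± 0.18 and 0.46 ± 0.15 (adjusted p = 0.355 and 0.269). Otop1, a proton channel needed for otoconia, Noxo1, which organises the Nox3 oxidase, and Ceacam16, of the tectorial membrane, had overlapping genotypes and differences of 0.14 ± 0.12, 0.00 ± 0.10 and 0.32 ± 0.18. Oc90, the main protein of otoconia, had overlapping levels of 3.65, 3.96 and 3.87 in the null arrays and 3.95, 3.71 and 3.51 in wild type, and a difference of 0.10 ± 0.21 (adjusted p = 0.89). The mean level of the list was 4.42, 4.61 and 4.32 in the null arrays against 4.09, 4.09 and 3.89 in wild type. Otogl kept its call in 3 of the 6 fits without an array.

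Hair cell genes had smaller differences. Ocm, oncomodulin, a calcium buffer of hair cells, had 4.09, 3.98 and 3.75 in the null arrays against 3.11, 3.20 and 3.30 in wild type and rose by 0.73 ± 0.14 (adjusted p = 0.049), with the call kept in 2 of the 6 fits without an array. Of 47 measured hair cell genes, 34 were higher and 13 lower, and the median was 0.14. Ocm alone was called (2.13%, against 0.298% of all autosomal genes). Ptprq, a phosphatase of the hair bundle, differed by 0.68 ± 0.16 (adjusted p = 0.1), Adgrv1, of the links between stereocilia, by 0.44 ± 0.09 (adjusted p = 0.0595) and Clrn1, clarin 1, by 0.52 ± 0.13 (adjusted p = 0.127), each without overlap. Mcoln3, a cation channel whose mutation causes the deaf and circling varitint-waddler mouse, was in none of the gene lists. Its level was 4.93, 4.96 and 4.96 in the null arrays against 4.05, 3.98 and 4.34 in wild type, and it rose by 0.83 ± 0.14 (adjusted p = 0.0222). Supporting cells had 23 genes higher and 4 lower of 27 (median 0.11, with 0.06 without wild-type array 2 and 0.19 without wild-type array 3). Dark cells and endolymph transport had 15 higher and 6 lower of 21 (median 0.16), and otic fibrocytes 14 higher and 2 lower of 16 (median 0.18). In each list 0 were called. The unadjusted p was under 0.05 in 9, 7 and 7 genes, against 2117 of all 19106 autosomal genes. Coch, cochlin of the fibrocyte matrix, had 8.39, 8.39 and 8.15 in the null arrays against 7.94, 7.84 and 7.77 in wild type and a difference of 0.46 ± 0.09 (adjusted p = 0.0513). Kcnj16, a potassium channel, differed by 0.78 ± 0.19 (adjusted p = 0.102).

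The falls were led by genes of the B cell lineage. Cd79b, a signalling chain of the B cell receptor, had 4.51, 4.78 and 4.54 in the null arrays against 5.75, 5.58 and 5.31 in wild type and fell by 0.93 (SE 0.12; adjusted p = 0.00338). Spib, which drives B cell and plasmacytoid dendritic cell gene expression, had 3.09, 3.43 and 3.28 in the null arrays against 4.21, 4.10 and 4.24 in wild type and fell by 0.92 (SE 0.12; adjusted p = 0.00337). Both calls held in all 6 fits without an array. Pax5, the factor that commits cells to the B lineage, had 3.21, 4.00 and 3.33 in the null arrays against 4.40, 4.47 and 4.50 in wild type and fell by 0.94 (SE 0.17; adjusted p = 0.0222). Pou2af1, a coactivator of immunoglobulin genes, had 4.34, 4.41 and 4.24 in the null arrays against 5.21, 5.20 and 5.01 in wild type and fell by 0.81 (SE 0.13; adjusted p = 0.0177). Null array 2 lay nearest to wild type in each of these 4 genes. Fcrla, an Fc receptor-like protein inside B cells, fell by 0.88 (SE 0.14; adjusted p = 0.0141), and Niban3 by 0.54 (SE 0.10; adjusted p = 0.0398). Pax5, Pou2af1 and Niban3 were called in 3 of the 6 fits without an array and Fcrla in 4. Without normalisation between arrays 1 lower gene was called in all, and the median of all autosomal genes moved to 0.17.

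Further members of the B cell lists lay lower without passing. Of 22 measured pre-B cell genes, 5 were higher and 17 lower, with a median of -0.41. In this list 4 were called as lower (18.2%, against 0.0576% of all autosomal genes). Of 28 mature B cell genes, 3 were higher and 25 lower, with 2 called as lower (7.14%). The mature B cell median was -0.30, and it was -0.18 without null array 3 and -0.14 with array weights. Without normalisation the medians of the 2 lists were -0.23 and -0.12. The null arrays lay below wild type without overlap in 10 genes of each list (45.5% and 35.7%, against 4.06% of all genes) and above in 0. Cd79a, the partner chain of Cd79b, had 2.71, 3.45 and 2.50 in the null arrays against 3.80, 4.29 and 4.31 in wild type and a difference of -1.24 ± 0.25 (adjusted p = 0.051). Rag1, which recombines antigen receptor genes, had 3.47, 3.72 and 3.46 in the null arrays against 4.28, 4.28 and 4.41 in wild type and a difference of -0.77 ± 0.16 (adjusted p = 0.0516). Igll1, of the surrogate light chain of pre-B cells, differed by -0.82 ± 0.18 (adjusted p = 0.0778), and Ms4a1, which encodes CD20, by -0.84 ± 0.21 (adjusted p = 0.124). Ebf1, an early B cell factor that fibroblasts also express, had overlapping levels and a difference of 0.16 ± 0.08 (adjusted p = 0.501). The wild-type level of Rag1 was 5.95 at P15 and 4.32 at P90, and that of Cd79a 5.54 and 4.13.

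Genes of some other blood lineages also lay lower. Of 18 red cell and megakaryocyte genes, 1 was higher and 17 lower, with 0 called and a median of -0.40, and the mean level was 5.43, 5.85 and 5.20 in the null arrays against 6.32, 5.89 and 5.82 in wild type, with null array 2 within the wild-type range. Klf1, the erythroid transcription factor, differed by -0.92 ± 0.25 (adjusted p = 0.163), and Car1, a carbonic anhydrase of red cells, by -1.02 ± 0.28 (adjusted p = 0.182). All 34 cell cycle genes had differences below 0, with a median of -0.44, which was -0.20 without null array 3, -0.24 without wild-type array 1, -0.28 with array weights and -0.225 without normalisation. The only called member, Cenpn, a centromere protein, had 4.58, 4.35 and 4.40 in the null arrays against 5.10, 4.79 and 4.89 in wild type and fell by 0.49 (SE 0.09; adjusted p = 0.0366), a call kept in 1 of the 6 fits without an array. Neutrophil granule genes had 6 higher and 17 lower of 23 and a median of -0.17, which turned to 0.14 without null array 3 and to 0.11 without wild-type array 1. Their mean level was 6.42, 6.15 and 5.45 in the null arrays and 6.58, 5.98 and 5.92 in wild type, so the genotypes overlapped. T and NK cell genes were split, 12 higher and 11 lower of 23, with a median of 0.02 (-0.09 without null array 2 and 0.16 without null array 3). At P15 the medians were -0.44 for red cell and megakaryocyte genes, -0.36 for cell cycle genes and -0.30 for neutrophil granule genes. Those of pre-B, mature B, and T and NK cell genes were -0.33, -0.29 and 0.02 at P15. The part of blood-forming cells in the falls was not tested.

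**Figure D4:**
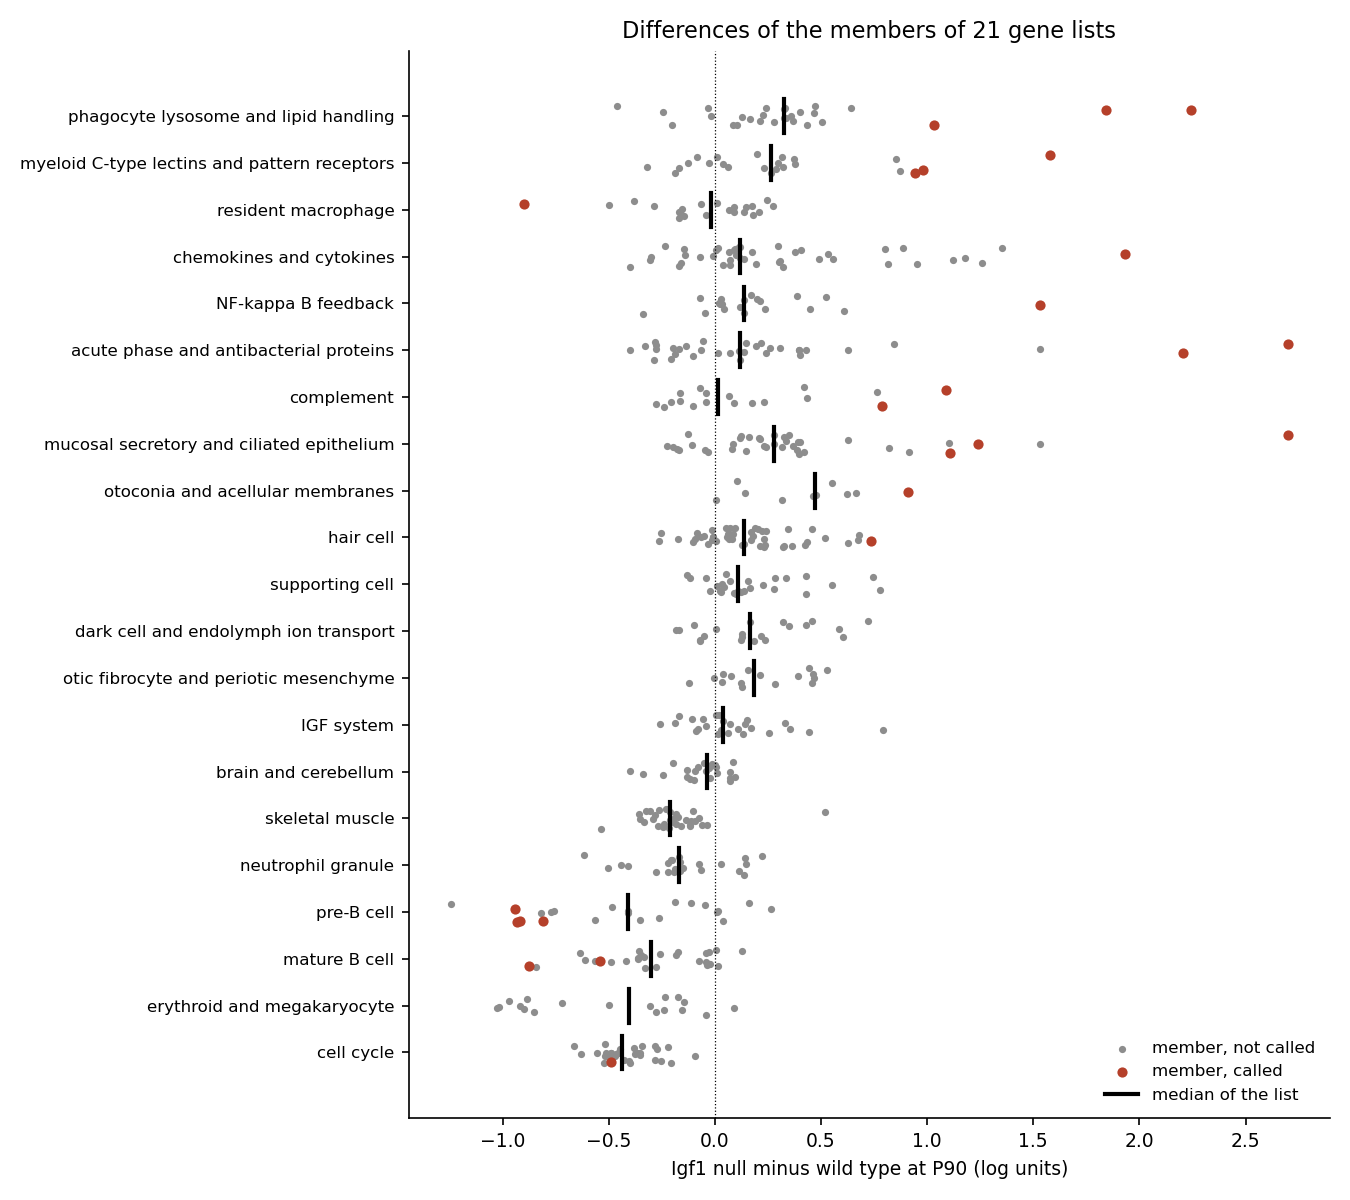
Difference at P90, Igf1 null minus wild type in log units, of each measured autosomal member of 21 gene lists, 1 list per row, with called members in red and a bar at the median of the list. Medians run from -0.44 (cell cycle) to 0.47 (otoconia and acellular membranes); called members reach 2.70 (Reg3g, in 2 lists).

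The other called genes are given singly, and no grouping of them was tested. Glra3, a glycine receptor subunit, had 3.62, 3.87 and 3.00 in the null arrays against 1.69, 1.98 and 2.19 in wild type and rose by 1.54 ± 0.22 (adjusted p = 0.00926). Hal, which breaks down histidine, had 4.93, 4.95 and 4.76 in the null arrays against 3.81, 3.76 and 4.04 in wild type and rose by 1.01 ± 0.17 (adjusted p = 0.0207). Hhip, which binds and restrains hedgehog ligands, rose by 0.77 ± 0.15 (adjusted p = 0.0401). Cyp2r1, a vitamin D 25-hydroxylase, rose by 1.12 ± 0.20 (adjusted p = 0.0222) with dim levels of 3.02, 2.48 and 2.54 in the null arrays against 1.60, 1.60 and 1.46 in wild type. The uncharacterised 2210407C18Rik had 5.0, 3.50 and 3.19 in the null arrays against 1.85, 1.97 and 1.81 in wild type and rose by 2.02 ± 0.33 (adjusted p = 0.0182). Null array 1 lay far above the other null arrays there. BC006965 rose by 1.02 ± 0.17, but its other probe set differed by 0.04. The remaining rises were Adam28, Slc44a3, Dnajc5b, Slco1a5, Vmn1r21, Tmc4, Gas2, Bdh2, Ccdc60 and Nudt12, between 0.48 and 1.09. Among the falls, Efna4, an ephrin ligand, had 2.59, 2.51 and 2.84 in the null arrays against 3.42, 3.81 and 3.44 in wild type and fell by 0.91 (SE 0.16; adjusted p = 0.0268). Tg, the thyroglobulin gene, fell by 0.51 (SE 0.10; adjusted p = 0.0377), and Stum by 0.46 (SE 0.09; adjusted p = 0.0419). Tg was the only called member of a list of 12 measured thyroid and other gland genes, 7 higher and 5 lower (median 0.02). All of the genes in this paragraph lost their call in at least 1 fit without an array. Near Igf1 on chromosome 10, alleles of the strain that carried the mutation can remain linked to it. Within 20 Mb of Igf1, 2 of 372 genes were called (0.538%, against 0.298% of all autosomal genes). These were Hal at 5.6 Mb and Otogl at 19.9 Mb.

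None of the 57 genes was called at E18.5 or P15, and the test of the difference between ages passed for few. Of the 46 genes chosen as higher at P90, 42 had a difference above 0 at P15 (median 0.22) and 11 at E18.5 (median -0.10). Of the 11 chosen as lower, 9 were below 0 at P15 (median -0.41) and 4 at E18.5 (median 0.04). The P90 genotype difference departed from that of P15 in 3 of 19106 autosomal genes (0.0157%). These were Mmp12, by 2.13 ± 0.27 (adjusted p = 0.0168), Clec4n, by 1.40 ± 0.21 (adjusted p = 0.0416), and the dim 1700006A11Rik, by -1.11 ± 0.16 (adjusted p = 0.0382). Mmp12 had a P15 difference of 0.12 and an E18.5 difference of 0.07. Reg3g had 1.82 at P15 (adjusted p = 0.341), and its P90 and P15 differences were not told apart (adjusted p = 0.811). Gpnmb, with a P15 difference of 0.07, lay just beyond the threshold for the change between P15 and P90 (adjusted p = 0.0571). The others among the 10 smallest p against P15 were Tmprss11g, by 1.16 ± 0.19 (adjusted p = 0.0782), Pde1c, a cyclic nucleotide phosphodiesterase, by -0.92 ± 0.15 (adjusted p = 0.0816), and Ccdc60, Olfr768, Efna4 and Adhfe1 with adjusted p from 0.115 to 0.234. From E18.5, the P90 difference departed in 60 autosomal genes (0.314%), 28 upward and 32 downward, and 20 of the 57 were among them. Among the 10 with the smallest p were 3 not called at P90. Myl4, a myosin light chain, departed by -1.09 ± 0.14 (adjusted p = 0.00702) and Lrrc2 by -1.20 ± 0.19 (adjusted p = 0.0283), both downward, and the dim phospholipase gene Lipi by 1.32 ± 0.21 (adjusted p = 0.0283). The B cell genes Spib, Cd79b and Pax5 had P15 differences of -0.64, -0.44 and -0.35, and E18.5 differences of 0.12, 0.09 and 0.22. The count for P15 was 0 to 7 when any 1 array of either age was left out, and 0 when array medians were subtracted or the Y-linked covariate was added. The count for E18.5 ran from 7 without P90 wild-type array 2 to 2139 without P90 wild-type array 3.

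**Figure D5:**
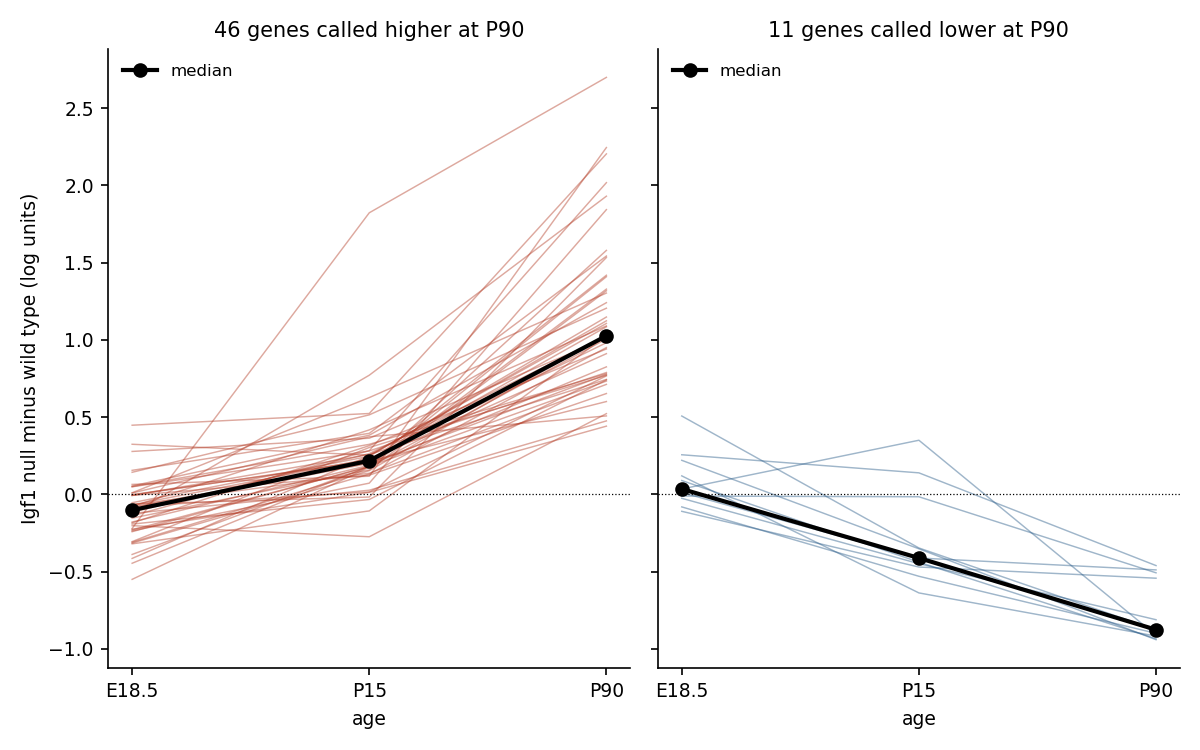
Genotype difference, Igf1 null minus wild type in log units, at E18.5, P15 and P90 for the 46 genes called higher (left) and the 11 called lower (right) at P90, 1 line per gene, with the median in black. The genes were chosen by their P90 values, so the size at P90 is fixed by that choice; the medians are -0.10, 0.22 and 1.03 on the left and 0.04, -0.41 and -0.88 on the right.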

How the data were processed

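Members and gene lists were chosen with earlier results of these data known. The authors deposited 1 table of 28853 probe sets in 18 arrays; per the labels, RNA of vestibular organs was amplified from 100 ng and hybridised to Mouse Gene 1.1 ST arrays. The deposited values are on a log scale, most likely the natural log: the highest, 10.03, would be an intensity of 22704 with base e and 1046 with base 2. The sources used here give no background correction, summarisation, log base, detection calls, scan dates or batches.

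Probe sets were named from the platform annotation (21789 with 1 symbol, 1621 with several, 5443 not listed), updated through RefSeq gene identifiers (GRCm38.p6; 21698 matched). Other probe sets were not used, and the one with the highest mean stood for a gene. Values were quantile normalised over 18 arrays, which removes any overall shift between groups, and fitted with a mean for each of 6 groups (limma 3.58.1, R 4.3.3, lmFit and eBayes, 12 residual and 2.98 prior degrees of freedom). P-values were adjusted by Benjamini-Hochberg over 19938 genes at a threshold of 0.05. The fit was tested on simulated arrays. Python 3.11.15, pandas 2.3.3, numpy 2.4.6 and matplotlib 3.10.9 made the summaries and figures.

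Genes that could be named were taken by rule: Igf1, all called genes, the next falls by p up to 15, the 4 list members with the smallest p, all members of the otoconia, B cell, chemokine and IGF lists, and 10 genes for each difference between ages. The text names part of them, picked with their values in view, and covers the rest in the counts of each list. In all, 42 lists held 1044 genes, 970 of them measured; 1 list was of sex-linked genes, which leaves 41 of autosomal genes. Promoters were searched on both strands.

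Samples were grouped by title. Arrays that shared a replicate number were not treated as pairs. Same-numbered arrays had correlations of deviations of 0.145, -0.185 and -0.153 at P90. These were 0.072, 0.238 and 0.005 at P15 and -0.048, 0.046 and -0.004 at E18.5. With 3 arrays per group, such correlations cannot settle whether the numbers pair the arrays. Alternatives changed the scaling, the arrays or genes in the fit, the probe sets, the prior, array weights, a Y-linked covariate, a block for replicate number and each array in turn. The number of arrays limits the precision.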

Additional observations from a re-analysis of the deposited data

Results flagged for a closer look

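The limma test of the difference between ages set 27 of the named genes apart, with n = 3 arrays per group and adjusted p under 0.05. Against P15, the genotype difference at P90 was larger by 2.13 for Mmp12 and 1.40 for Clec4n, and 1700006A11Rik gave -1.11. Against E18.5, phagocyte and inflammatory genes gave 2.18 for Mmp12, 2.08 for Gpnmb, 2.05 for Ccl3, 1.97 for Clec4n, 1.34 for Msr1 and 0.90 for Tnip2. Genes of epithelia gave 1.88 for Gabrp, 1.47 for Tmprss11g, 1.35 for Upk1b, 1.27 for Slc34a2, 1.20 for Kcnj15 and 0.67 for Dsc2. Leukocyte genes gave differences below 0, at -1.38 for Fcrla, -1.04 for Spib, -1.02 for Cd79b and -0.82 for Siglecf. The remaining genes gave 1.54 for Cyp2r1, 1.41 for Kcnj16, 1.24 for Dnajc5b, 1.08 for Hhip, 0.93 for Vmn1r21, 0.73 for Ccdc60 -0.72 for Stum, 1.32 for Lipi, -1.09 for Myl4 and -1.20 for Lrrc2. Most of these genes were named for their P90 difference, so their balance is not that of all 60 that departed from E18.5, 28 upward and 32 downward. The P90 side of most of these had been called first, so its size is not independent of the choice. Groups of 3 arrays are too small to test a single array as an outlier.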

How the results depend on the processing

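Under every setting that tested them, the 57 genes kept their direction (3 were left out with the dim genes). The 57 calls at P90 (46 higher, 11 lower) became 5 (5 and 0) with the P90 arrays alone, which leaves 4 residual degrees of freedom. Without dim genes they became 99 (82 and 17). A replicate block gave 15 (11 and 4), and whether the replicate numbers pair the arrays could not be settled. A trended robust prior gave 96 (82 and 14), array weights 561 (406 and 155) and the Y-linked covariate 7 (6 and 1). Lower calls were 1 without normalisation. Leaving out each array gave 15 to 635 calls, 10 to 386 higher and 2 to 249 lower. Against P15, 3 calls became 0 with array medians subtracted or the Y-linked covariate, 1 without normalisation, 14 with array weights and 0 to 7 without each array. Against E18.5, 60 calls became 145 without dim genes, 9 with the replicate block, 115 with the trended robust prior, 2195 with array weights, 8 with the Y-linked covariate and 7 to 2139 without each array. The cause was not tested. Of the named genes, Igf1 turned to 0.0611 without normalisation. Il1b turned to -0.12 with array weights and -0.0949 with the Y-linked covariate and ran from -0.16 to 0.203 without each array. Oc90 ran from -0.0029 to 0.216 without each array. Noxo1 ran from -0.0508 to 0.0939 and Pde1c from -0.0971 to 0.0222 without each array, and Pde1c turned to 0.131 without normalisation. Signal over background limits the genes below 3.4, among them 4 called genes dim in both genotypes and 17 dim in 1.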

Other observations

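In several lists not described above, no gene was called at P90 and most members lay on one side. Of 18 genes of mast cells, basophils and eosinophils, 5 were higher and 13 lower in the null organ (median -0.09). The eosinophil receptor gene Ccr3 had 3.54, 3.48 and 3.02 in the null arrays against 4.26, 4.42 and 3.83 in wild type and a difference of -0.83 ± 0.19 (limma adjusted p = 0.078), and Siglecf differed by -0.44 ± 0.10 (adjusted p = 0.0872). Of 33 skeletal muscle genes, 1 was higher and 32 lower, with a median of -0.21, where the same list had -0.48 at P15 and 0.66 at E18.5. The muscle median at P90 was -0.03 without normalisation and -0.09 with array weights, and ran from -0.27 to -0.15 without each array. Of 21 adipocyte genes, 18 were higher and 3 lower (median 0.24). Interferon response genes had 19 higher and 8 lower of 27 (median 0.15), with 0.88 ± 0.24 (adjusted p = 0.182) for the guanylate-binding protein gene Gbp5. Antigen presentation genes had 16 higher and 3 lower of 19 (median 0.11). Without null array 3 these medians were 0.07 for the mast cell list, 0.14 for adipocytes, 0.25 for interferon response and 0.19 for antigen presentation. The mast cell median was -0.24 without null array 2 and -0.21 without wild-type array 2, that of adipocytes 0.15 without wild-type array 3 and that of interferon response 0.05 without wild-type array 2.

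Connective tissue lists were mixed. Of 26 cartilage genes, 17 were higher and 9 lower (median 0.06), and in 7 of them (26.9%, against 6.43% of all autosomal genes) the null arrays lay above wild type and in 3 (11.5%, against 4.06%) below. Chad, chondroadherin, had 6.87, 6.83 and 6.26 in the null arrays against 5.95, 5.79 and 6.18 in wild type and a difference of 0.68 ± 0.14 (adjusted p = 0.0513), and the cytokine-like Cytl1 differed by 0.77 ± 0.16 (adjusted p = 0.0516). Of 20 osteoblast and osteocyte genes, 9 were higher and 11 lower. Fgf23, the phosphate hormone of osteocytes, had 4.53, 4.62 and 4.61 in the null arrays against 5.45, 5.32 and 5.32 in wild type and a difference of -0.78 ± 0.19 (adjusted p = 0.103). Dct, a pigment enzyme of melanocytes, differed by 0.69 ± 0.17 (adjusted p = 0.126) in a list of 18 with 13 higher and 5 lower, whose only called member was Gpnmb. The lists of vestibular ganglion neurons (17 higher, 10 lower of 27), Schwann cells (9 and 9 of 18) and endothelium (15 and 8 of 23) had medians of 0.04, 0.00 and 0.07. Slc17a7 stands in both the ganglion neuron list and the brain and cerebellum list. With cerebellar RNA in the arrays, the ganglion neuron and Schwann cell medians cannot be assigned to those cells alone. The median of the cartilage list turned to -0.02 without null array 2 and was 0.13 without null array 1.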
